A study of Homo sapiens with 18 samples.

Results

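The genes described here are the long noncoding RNA genes that carry a LINC name, that is LINC followed by digits, in IMR90 cells. Members were chosen by their counts summed over the 18 libraries, which had to reach 1000, and 67 of 60668 genes in the table qualified. The sum measures abundance only, so it is given as a description and with no test. The table held 2107 genes with such a name, 136 of them without a count in any library. Just inside the limit were LINC01081 with 1012 counts and LINC00265 with 1047 counts, and just outside it were LINC01943 with 991 counts and LINC01426 with 984 counts. Member totals ran up to 31275 counts, with a median of 2556.

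IMR90 cells are primary human lung fibroblasts, and the labels give all libraries as wild type and as polyadenylated RNA. There were 6 groups of 3 libraries: irradiated cells given RG7388 (IR_RG7388), HDM201 (IR_HDM201) or the solvent DMSO (IR_DMSO), and proliferating cells given RG7388 (Prolif_RG7388), HDM201 (Prolif_HDM201) or DMSO (Prolif_DMSO). Irradiation drives these cells into senescence, a lasting exit from the cell cycle. RG7388 (idasanutlin) and HDM201 (siremadlin) inhibit MDM2, a ubiquitin ligase that keeps p53 low by sending it to the proteasome. Irradiated cells received the compounds from day 4 and were collected on day 11 after irradiation, and the labels give no schedule of their own for proliferating cells. The study's methods give different doses for them, so their values stand side by side and are not ranked. The study's reporting statement counts 1 well of a culture plate as a replicate of cultured cells, so each p-value covers the variation among wells and not among separate experiments.

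Long intergenic noncoding RNAs are transcribed by RNA polymerase II, spliced and polyadenylated much like messenger RNAs, but have no long reading frame. Some act on a neighbouring gene from their own site of transcription, some scaffold protein complexes or bind microRNAs, and for many no function is known. Several noncoding RNAs are direct targets of p53, and others lie beside genes of inflammation, a pair of programs that senescent fibroblasts are known for.

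The word intergenic held only in part. In GENCODE release 44, 60 members were typed as long noncoding RNA, and 7 identifiers pointed to a pseudogene record. Exons fell into 57 models with several exon blocks and 10 with a single block. A protein-coding gene lay within 100 kb of 58 members. Of these, 15 overlapped the body of the coding gene, 8 on its strand and 7 on the opposite strand, and 12 were divergent from it, that is side by side and pointing away from each other. Exons of 34 members overlapped those of another counted gene, for 5 of them over more than 20% of the exon length. Whether counting used strand is not given in the sources used here, so counts of overlapping genes are uncertain. The same holds for members with near-identical copies, among them LINC01138, LINC00869, LINC00623 and LINC01145 on chromosome 1, LINC02693 beside KCNJ12 and LINC00842 beside ANXA8L1.

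The promoters of 5 members that the results turn on are shown here, each from 250 bases before to 50 bases after the RefSeq start on GRCh38.p14. LINC00346 (chr13:110870259-110870558) and LINC00702 (chr10:4243863-4244162) fell after irradiation under every treatment, LINC00472 (chr6:71420696-71420995) shares its locus with OGFRL1, LINC00511 (chr17:72640423-72640722) fell under both compounds in irradiated cells, and LINC01137 (chr1:37474394-37474693) starts 148 bases from ZC3H12A. All 5 lie on the minus strand. Capitals mark letters that match a searched motif.
LINC00346: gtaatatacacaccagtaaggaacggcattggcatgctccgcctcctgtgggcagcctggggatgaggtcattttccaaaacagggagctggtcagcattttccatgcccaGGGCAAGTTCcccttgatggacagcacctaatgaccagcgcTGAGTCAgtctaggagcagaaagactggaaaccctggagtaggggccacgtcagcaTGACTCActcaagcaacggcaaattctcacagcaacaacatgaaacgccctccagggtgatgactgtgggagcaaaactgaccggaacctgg
LINC00702: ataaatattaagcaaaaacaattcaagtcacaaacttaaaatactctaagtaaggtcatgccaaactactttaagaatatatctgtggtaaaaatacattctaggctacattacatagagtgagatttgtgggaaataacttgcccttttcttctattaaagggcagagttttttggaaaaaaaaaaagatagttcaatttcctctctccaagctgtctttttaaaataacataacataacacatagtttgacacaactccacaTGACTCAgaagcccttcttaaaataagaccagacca
LINC00472: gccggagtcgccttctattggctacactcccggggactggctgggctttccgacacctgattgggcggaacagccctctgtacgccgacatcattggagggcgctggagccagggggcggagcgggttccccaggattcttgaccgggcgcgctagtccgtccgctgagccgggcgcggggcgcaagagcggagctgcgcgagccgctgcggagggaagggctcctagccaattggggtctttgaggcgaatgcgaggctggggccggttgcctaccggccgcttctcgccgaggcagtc
LINC00511: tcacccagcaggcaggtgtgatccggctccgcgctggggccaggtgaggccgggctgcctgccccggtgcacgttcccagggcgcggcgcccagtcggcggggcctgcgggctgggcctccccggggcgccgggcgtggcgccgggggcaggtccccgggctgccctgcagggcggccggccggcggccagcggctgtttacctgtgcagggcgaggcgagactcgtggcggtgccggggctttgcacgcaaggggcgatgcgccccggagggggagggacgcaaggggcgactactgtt
LINC01137: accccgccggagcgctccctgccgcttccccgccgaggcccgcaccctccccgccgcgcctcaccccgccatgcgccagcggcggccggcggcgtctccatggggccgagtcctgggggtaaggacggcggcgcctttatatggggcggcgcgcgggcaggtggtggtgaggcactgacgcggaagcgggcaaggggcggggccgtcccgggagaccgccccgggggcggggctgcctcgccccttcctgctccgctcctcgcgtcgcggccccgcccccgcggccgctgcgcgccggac
The motifs were the p53 decamer, the NF-kB decamer, the AP-1 motif TGANTCA, the E2F motif TTTGGCGC or TTTCCCGC, and the cell cycle homology region TTTGAA, on both strands. In LINC00346 the capitals are a p53 decamer starting 139 bases before the start and AP-1 matches starting 98 and 42 bases before it. In LINC00702 they are an AP-1 match 14 bases after the start. The other 3 promoters held none of these letters, and their GC content was 68.7% for LINC00472, 78.0% for LINC00511 and 80.7% for LINC01137, against 31.3% for LINC00702. RefSeq promoters were found for 54 of 67 members. For some the RefSeq start lay far from the GENCODE start, up to 97582 bases for LINC01588. Among them are LINC00963, LINC00973 and LINC01081 with AP-1 matches and LINC01119 with a p53 match. The tallies may therefore not describe the promoters of the models counted. The p53 decamer stood in 4 of the 54 and in 6.63% of all 35116 promoters. The NF-kB decamer stood in 2 and in 5.91%, AP-1 in 8 and in 7.71%, E2F in 1 and in 2.27%, and the cell cycle homology region in 6 and in 15.2%. A match describes letters and is not a binding site.

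Library totals ran between 21609198 and 66647700 counts. Levels are given as CPM, counts divided by library size and adjusted with TMM, a factor that corrects for library composition. CDKN1A, the p53 target that halts the cell cycle, averaged 1763 to 2110 CPM in the irradiated groups and 231 to 748 CPM in the proliferating groups, and MKI67, a marker of cycling cells, averaged 9.52 to 28.9 CPM in the irradiated groups and 344 to 506 CPM in the proliferating groups. All 9 fibroblast markers reached 1 CPM in every group, and they summed to 21933 to 32236 CPM in irradiated and 47865 to 61734 CPM in proliferating libraries. The 6 epithelial markers summed to 2.55 to 4.65 CPM in irradiated and 8.32 to 13.2 CPM in proliferating libraries, the 6 leukocyte markers to 2.19 to 4.48 CPM in irradiated and 0.876 to 1.60 CPM in proliferating libraries, the 3 erythroid markers to at most 0.199 CPM, and the 6 endothelial markers to 117 to 163 CPM in irradiated and 74.5 to 85.5 CPM in proliferating libraries, with 1 or 2 of the 6 at 1 CPM or more. Fibroblast, endothelial, epithelial and leukocyte sums thus moved with irradiation, and their part in the results was not tested. Earlier work on these data set IR_DMSO replicate 1 and Prolif_HDM201 replicate 3 apart. Their median correlations to their own group, 0.979 and 0.977, were the lowest, but IR_HDM201 replicate 2 was close at 0.980. Leaving both out ended 9 of the 121 calls of members given here. In bulk RNA, fewer cells that express a gene and less of its RNA per cell cannot be told apart.

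The members were rare transcripts. Together they held 0.0465 to 0.0532% of the counts in irradiated libraries and 0.0417 to 0.0449% in proliferating libraries, with no overlap. After TMM scaling the summed level overlapped between states, with 470 ± 9.86 CPM in IR_RG7388, 471 ± 7.68 CPM in IR_HDM201 and 446 ± 31.7 CPM in IR_DMSO, and 471 ± 2.89 CPM in Prolif_RG7388, 458 ± 16.3 CPM in Prolif_HDM201 and 447 ± 8.54 CPM in Prolif_DMSO (SD, n = 3 each). A difference in the summed share therefore depended on the scaling.

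On the scale of the deposited FPKM, which divides by transcript length, the highest member was LINC01578 with a mean of 25.5 FPKM over the 18 libraries. This gene is also called CHASERR and restrains its neighbour CHD2, a chromatin remodeller. LINC00667 (11.1 FPKM) and LINC01605 (10.9 FPKM) came next, followed by LINC00963, LINC00475, LINC00960, LINC02693, LINC00662, LINC01184 and LINC01278 between 8.44 and 6.32 FPKM. LINC00475 had the widest range of these 10, from 1.79 to 29.8 FPKM. LINC01578, the highest on this scale, was called in none of the comparisons. By counts summed over the 18 libraries LINC02693 stood first, with 31275 against 15078 for LINC01578.

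**Figure D1:**
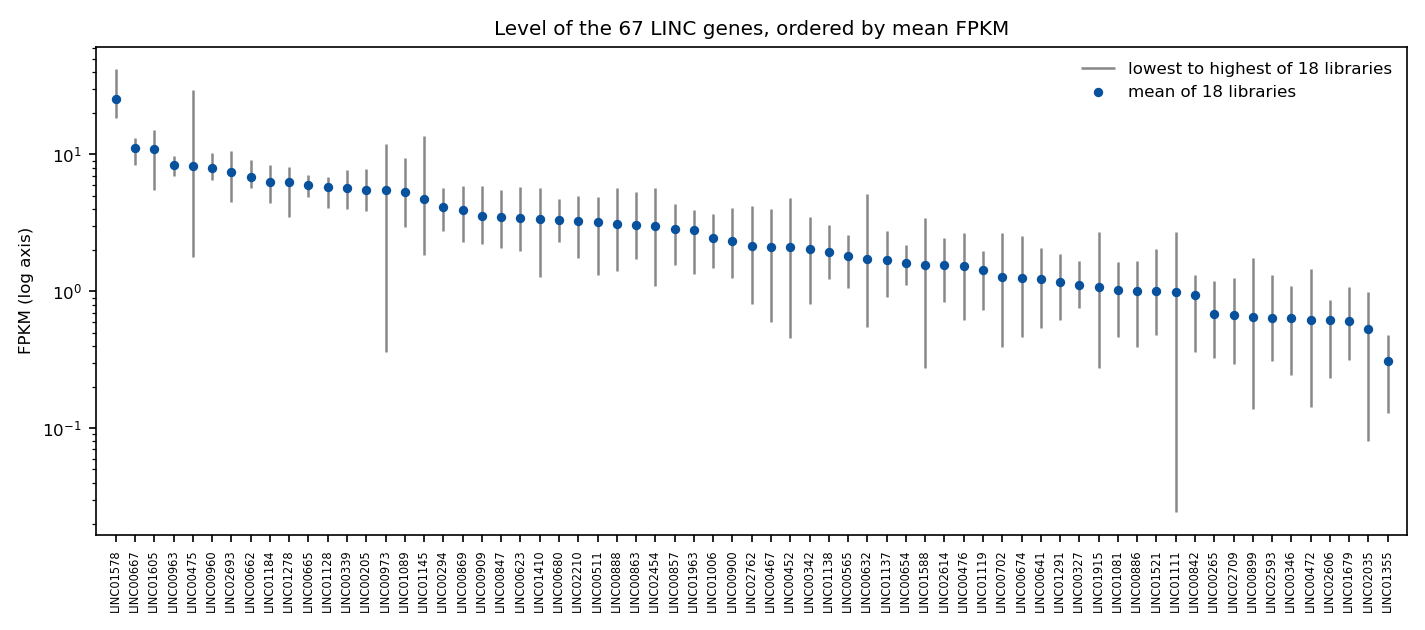
Mean FPKM (log axis) of the 67 members over all 18 libraries, with bars from the lowest to the highest library. LINC01578 stands highest at 25.5 FPKM, and LINC00475 spans 1.79 to 29.8 FPKM.

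Irradiation was compared within each treatment. A gene was called at an edgeR quasi-likelihood p, adjusted by Benjamini-Hochberg over all 18151 genes tested, below 0.05. All 67 members were tested. In DMSO, 20 members rose and 12 fell, against 51.6% of all genes called (26.3% higher and 25.3% lower), and the member median was 0.14 on the log2 scale against 0.053 over all genes. In RG7388, 13 members rose and 9 fell, against 44% of all genes (21.3% higher and 22.8% lower), with a median of 0.069 against 0.035. In HDM201, 14 rose and 9 fell, against 46.5% of all genes (22.7% higher and 23.8% lower), with a median of 0.18 against 0.011. Scaled to library totals alone, the median of all genes shifted by 0.29 in DMSO, and the members called split into 28 higher of 35 in DMSO, 20 of 28 in RG7388 and 20 of 27 in HDM201. Over all genes in DMSO the split was 7202 higher of 10074 called, against 4777 of 9364 with TMM. These 3 comparisons use different libraries. Across them, 10 members rose in all 3 and 6 fell in all 3, against 14.2% and 17.0% of all genes, and none was called in opposite directions, against 1.03%. The 10 include LINC01111, LINC00973, LINC01588, LINC02035, LINC00467, LINC00452, LINC00472, LINC00888 and LINC00886, which reached the count limit mainly through irradiated libraries. Of the 6, LINC00702 and LINC00346 reached it mainly through proliferating libraries. The counts of members that rose or fell and the member medians are thus partly set by the rule that chose the members, and are a description. Of the 67 members, 22 were called in none of the 9 comparisons made, against 30.5% of all genes.

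**Figure D2:**
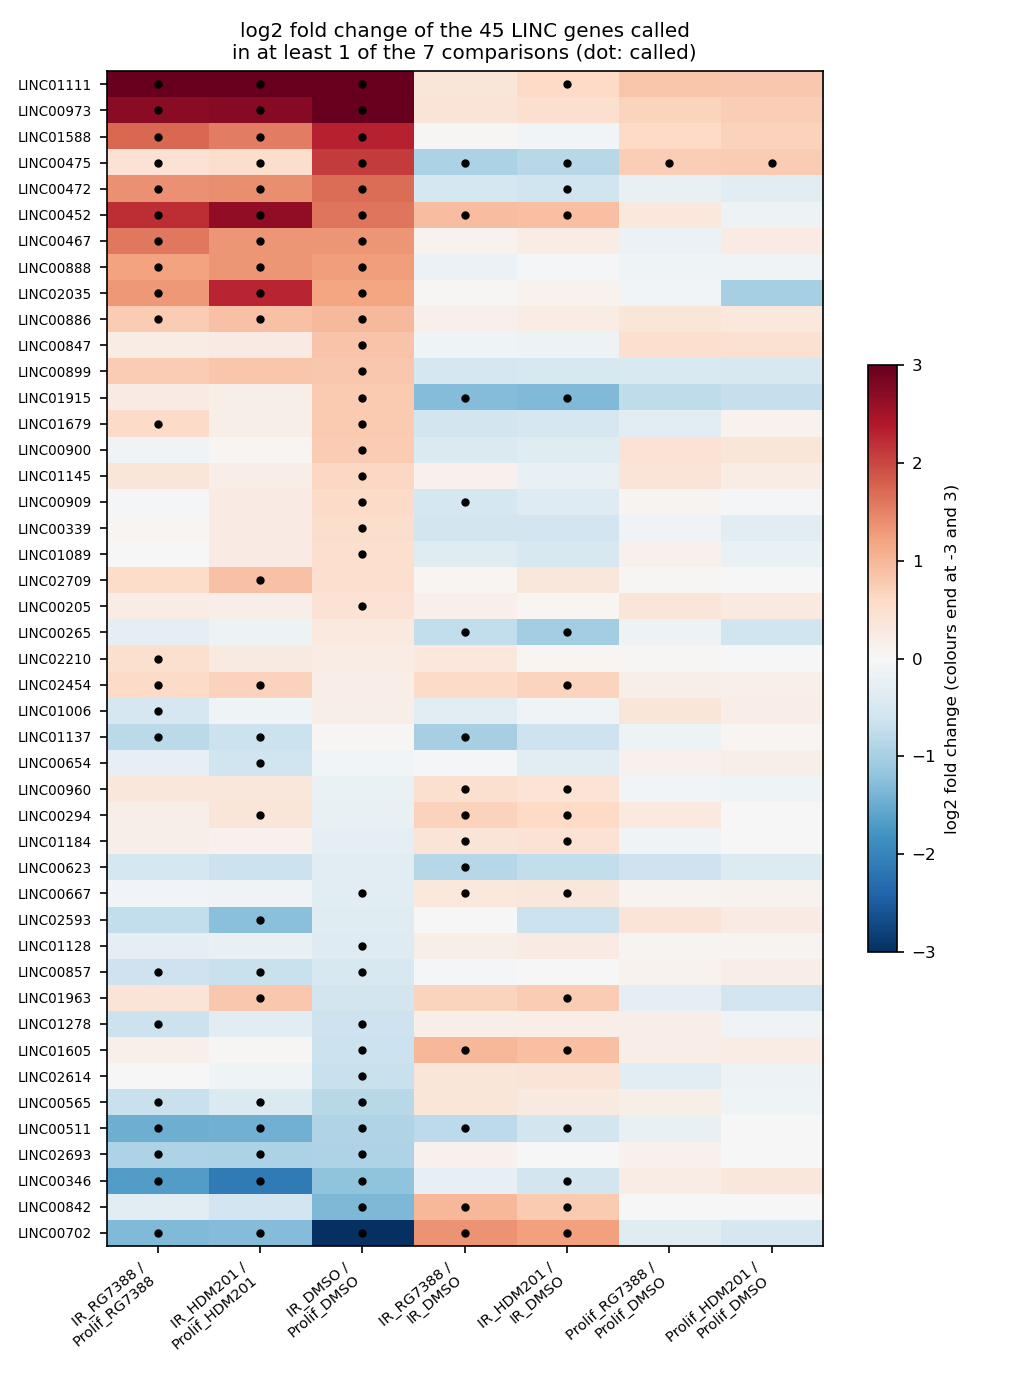
Log2 fold change of the 45 members called at least once, by comparison (columns), with colour limited at 3 and a dot for each call. The 10 members that rose and the 6 that fell in all 3 irradiation comparisons keep 1 colour across the irradiation columns.

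LINC01111 was close to absent in proliferating cells. It had 4.23, 3.93 and 4.38 CPM in IR_RG7388, 5.75, 4.31 and 4.58 CPM in IR_HDM201 and 3.02, 3.53 and 3.26 CPM in IR_DMSO, against 0.451, 0.176 and 0.415 CPM in Prolif_RG7388, 0.262, 0.305 and 0.435 CPM in Prolif_HDM201 and 0.247, 0.172 and 0.137 CPM in Prolif_DMSO. Proliferating libraries held only 4 to 20 reads of it, and every irradiated library lay above every proliferating one. Of its 1643 counts, 1556 came from irradiated libraries, so the sum that chose the members was reached through the state where it is high, and its log2 fold changes of 4.03 ± 0.28 (SE) in DMSO, 3.56 ± 0.27 in RG7388 and 3.81 ± 0.26 in HDM201 are a description. The sums of LINC00973, LINC01588, LINC02035 and LINC00467 leaned on irradiated libraries too, with 475, 354, 489 and 415 counts from proliferating ones. Those of LINC00452, LINC00472, LINC00888 and LINC00886 did so as well, with 614, 627, 688 and 615 counts from proliferating ones. Those of LINC00899, LINC02709, LINC01915 and LINC00339 did so less, with 386, 417, 474 and 487 counts from proliferating ones. The sums of LINC00702 and LINC00346 leaned on proliferating libraries instead, with 510 and 842 counts from irradiated ones. The changes of all these members after irradiation are likewise described and not used as support. LINC00973, on chromosome 3, was present in proliferating cells and rose further. It had 10.5, 12.3 and 12.5 CPM in IR_RG7388, 11.9, 12.9 and 13.4 CPM in IR_HDM201 and 6.12, 10.4 and 10.7 CPM in IR_DMSO, against 1.44, 1.90 and 2.04 CPM in Prolif_RG7388, 1.42, 1.68 and 2.53 CPM in Prolif_HDM201 and 0.896, 1.21 and 1.42 CPM in Prolif_DMSO. States did not overlap, and its log2 fold changes were 2.98 ± 0.24, 2.70 ± 0.23 and 2.72 ± 0.23 in DMSO, RG7388 and HDM201.

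LINC01588 rose by 2.30 ± 0.25 in DMSO, 1.73 ± 0.25 in RG7388 and 1.53 ± 0.25 in HDM201 on the log2 scale. LINC00472, a gene whose loss has been linked to breast cancer, had 6.55, 8.05 and 7.65 CPM in IR_DMSO against 1.99, 2.03 and 2.92 CPM in Prolif_DMSO, a log2 change of 1.68 ± 0.21, with 1.38 ± 0.22 in RG7388 and 1.40 ± 0.22 in HDM201. LINC00888, which hosts small nucleolar RNAs and is also named SNHG33, rose by 1.26 ± 0.16, 1.22 ± 0.17 and 1.32 ± 0.17, and LINC00467, a gene repressed by MYCN in neuroblastoma, by 1.32 ± 0.22, 1.59 ± 0.24 and 1.32 ± 0.22. LINC02035 rose by 1.17 ± 0.25, 1.29 ± 0.26 and 2.28 ± 0.28. LINC00886 rose by 0.97 ± 0.25, 0.76 ± 0.25 and 0.87 ± 0.25, but its call in RG7388 was lost without IR_RG7388 replicate 2 (adjusted p = 0.0508) or Prolif_RG7388 replicate 1 (adjusted p = 0.132), and in HDM201 without IR_HDM201 replicate 3 (adjusted p = 0.0582).

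LINC00702 had the largest fall in DMSO, which is a description, as its count sum leaned on proliferating libraries. It had 1.81, 1.24 and 2.23 CPM in IR_RG7388, 1.61, 1.45 and 1.87 CPM in IR_HDM201 and 0.425, 0.895 and 0.781 CPM in IR_DMSO, against 5.14, 4.37 and 3.96 CPM in Prolif_RG7388, 3.78, 4.65 and 3.74 CPM in Prolif_HDM201 and 6.29, 5.26 and 5.66 CPM in Prolif_DMSO. Its log2 fold change was -3.05 ± 0.24 in DMSO, -1.34 ± 0.22 in RG7388 and -1.30 ± 0.23 in HDM201. LINC00346, or PRECSIT, is a p53-regulated RNA of squamous carcinoma that raises STAT3 activity. It had 2.39, 2.38 and 1.92 CPM in IR_RG7388, 1.98, 1.67 and 1.69 CPM in IR_HDM201 and 2.55, 2.63 and 2.77 CPM in IR_DMSO, against 6.58, 7.37 and 7.53 CPM in Prolif_RG7388, 8.42, 8.23 and 6.86 CPM in Prolif_HDM201 and 6.13, 5.69 and 6.56 CPM in Prolif_DMSO. It fell by 1.21, 1.68 and 2.11 on the log2 scale, and states did not overlap.

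LINC00511, an RNA raised in several cancers, fell by 0.90, 1.46 and 1.43 on the log2 scale in DMSO, RG7388 and HDM201, and LINC02693 fell by 0.94, 0.91 and 0.94. LINC00565 fell by 0.83, 0.67 and 0.44, where the call in HDM201 was lost without IR_HDM201 replicate 1 (adjusted p = 0.0834) or 2 (adjusted p = 0.108) and without Prolif_HDM201 replicate 1 (adjusted p = 0.0834) or 2 (adjusted p = 0.172). LINC00857 fell by 0.48, 0.61 and 0.67. Its call in DMSO was lost when any 1 of 5 libraries was left out (IR_DMSO replicates 1 and 3 and the 3 Prolif_DMSO libraries, adjusted p = 0.0618 to 0.137), and in RG7388 without IR_RG7388 replicate 3 (adjusted p = 0.0597) or Prolif_RG7388 replicate 2 (adjusted p = 0.0548).

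Some members were called in DMSO and in neither compound, 9 higher and 5 lower, against 7.53% and 5.35% of all genes. LINC00847 rose by 0.86 ± 0.19, LINC00900 by 0.76 ± 0.17 and LINC00205 by 0.43 ± 0.11, while LINC00842 fell by 1.34 and LINC01605 by 0.64. Whether irradiation acted differently under a compound was tested as an interaction, and of these 14 members only LINC00900 and LINC01605 passed it. Of the 32 calls in DMSO, 9 were lost when 1 library was left out, with adjusted p between 0.0521 and 0.252. They were LINC01128, LINC02614, LINC00857, LINC00899, LINC00339, LINC01145, LINC01089, LINC01915 and LINC00667. On FPKM the direction turned for LINC01145 (-0.41), LINC00667 (0.11) and LINC01278 (0.12).

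**Figure D3:**
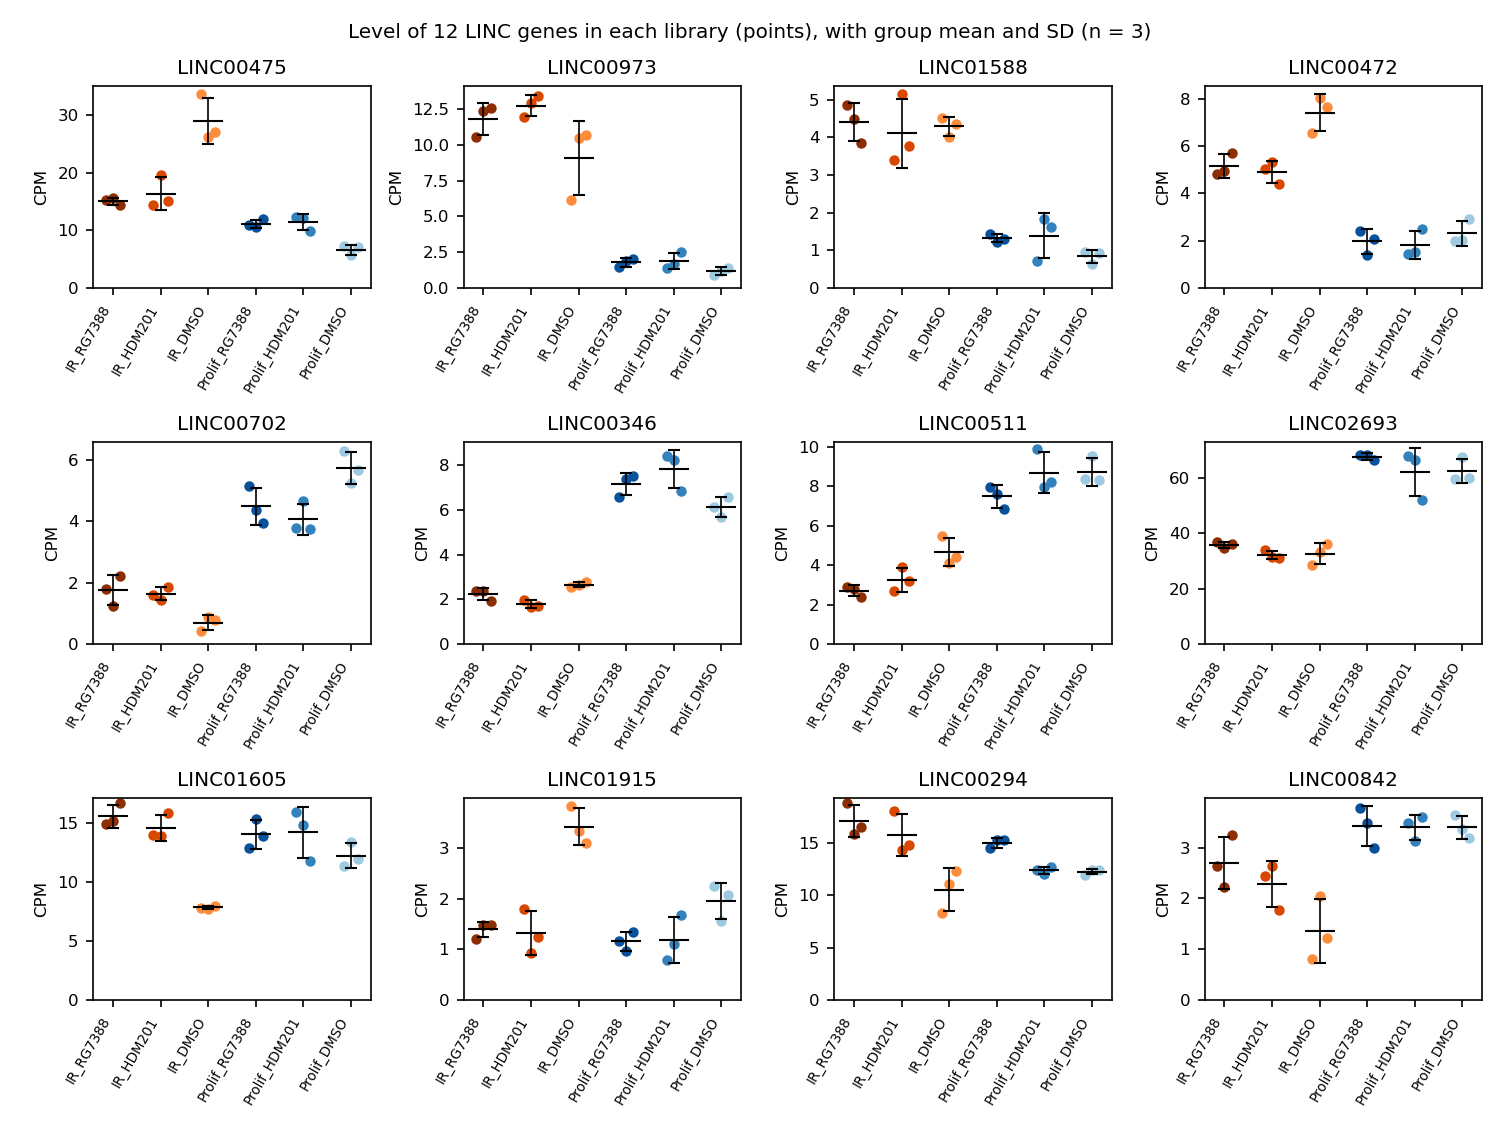
CPM of 12 members in each library (points), with the group mean and SD. LINC00973 and LINC01588 sit higher in all irradiated groups, LINC00346 and LINC02693 lower, and LINC00475 is highest in IR_DMSO.

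RG7388 in irradiated cells called 15 members, 8 higher and 7 lower, against 22.8% of all genes (10.9% higher and 11.9% lower), and the member median was 0.051 against -0.035 for all genes. HDM201 called 17, 11 higher and 6 lower, against 21.3% of all genes (9.96% higher and 11.3% lower), with a median of 0.017 against -0.023. The HDM201 count was 11 without IR_HDM201 replicate 1 or 2 and 9 without IR_DMSO replicate 1. Over all genes, 3226 of 18915, 3024 of 19055 and 3323 of 18691 were called in these 3 settings, against 3861 of 18151 with every library. With library totals alone, 5 of 20 members called were higher in RG7388 and 4 of 18 in HDM201, against 949 of 4689 and 975 of 4329 over all genes, so the balance of direction depends on scaling. Both comparisons share the IR_DMSO libraries with each other and with irradiation in DMSO.

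LINC00475 was highest in IR_DMSO and lower with either compound. It had 15.2, 15.6 and 14.3 CPM in IR_RG7388, 14.4, 19.6 and 15.1 CPM in IR_HDM201 and 33.6, 26.2 and 27.1 CPM in IR_DMSO, against 10.9, 10.7 and 11.9 CPM in Prolif_RG7388, 12.3, 12.2 and 9.82 CPM in Prolif_HDM201 and 7.29, 5.69 and 7.08 CPM in Prolif_DMSO. IR_RG7388 and IR_HDM201 overlapped, and so did Prolif_RG7388 and Prolif_HDM201. Irradiation raised it by 2.11 ± 0.14 in DMSO, 0.43 ± 0.14 (adjusted p = 0.0167) in RG7388 and 0.52 ± 0.14 in HDM201, and in irradiated cells it fell by 0.95 with RG7388 (adjusted p = 1.84e-05) and by 0.83 with HDM201 (adjusted p = 0.000115). The call for irradiation in RG7388 was lost without IR_RG7388 replicate 1 (adjusted p = 0.0665) or 2 (adjusted p = 0.0720) or Prolif_RG7388 replicate 1 (adjusted p = 0.0644) or 2 (adjusted p = 0.0599). On FPKM with limma, irradiation was called in neither RG7388 (adjusted p = 0.145) nor HDM201 (adjusted p = 0.36). The fall with HDM201 in irradiated cells was not called there either (adjusted p = 0.0661). Release 44 keeps its identifier for a record of 213 bases inside another noncoding RNA, so the model that was counted may differ.

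LINC00702 rose by 1.35 ± 0.25 with RG7388 and 1.24 ± 0.26 with HDM201 in irradiated cells, but on FPKM its changes were -0.06 in both. LINC01605 had 14.9, 15.1 and 16.6 CPM in IR_RG7388, 14.002, 13.8 and 15.9 CPM in IR_HDM201 and 7.82, 7.73 and 7.97 CPM in IR_DMSO, against 12.8, 15.3 and 13.9 CPM in Prolif_RG7388, 15.9, 14.8 and 11.8 CPM in Prolif_HDM201 and 11.3, 13.4 and 11.9 CPM in Prolif_DMSO. It rose by 0.99 ± 0.13 and 0.89 ± 0.13 with the compounds in irradiated cells, and IR_DMSO lay below all other libraries. LINC00294 rose by 0.70 ± 0.13 and 0.59 ± 0.13, and LINC00452 by 0.93 ± 0.15 and 0.89 ± 0.15. LINC01915 had 1.21, 1.49 and 1.48 CPM in IR_RG7388, 1.79, 0.923 and 1.24 CPM in IR_HDM201 and 3.83, 3.33 and 3.10 CPM in IR_DMSO, and fell by 1.31 under each compound. Its rise after irradiation in DMSO (0.79 ± 0.25) was lost without Prolif_DMSO replicate 2 (adjusted p = 0.0613).

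LINC00842 rose by 1.01 ± 0.25 with RG7388 and 0.78 ± 0.25 with HDM201, the HDM201 call being lost without IR_HDM201 replicate 1 (adjusted p = 0.0972) or 2 (adjusted p = 0.0992) or IR_DMSO replicate 1 (adjusted p = 0.158) or 3 (adjusted p = 0.0938). LINC00511 fell by 0.78 with RG7388 and 0.54 with HDM201, the HDM201 call being lost without IR_HDM201 replicate 1 (adjusted p = 0.163) or 3 (adjusted p = 0.0648) or IR_DMSO replicate 1 (adjusted p = 0.121). LINC00346 fell by 0.55 with HDM201, lost without IR_HDM201 replicate 2 (adjusted p = 0.0663) or 3 (adjusted p = 0.0650) or IR_DMSO replicate 3 (adjusted p = 0.0596), and its change with RG7388 was -0.25 ± 0.16 (adjusted p = 0.285). When 1 library at a time was left out, 9 of the 15 RG7388 calls and 6 of the 17 HDM201 calls were kept each time.

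In proliferating cells a single member was called for each compound, in both cases LINC00475, against 1.54% of all genes with RG7388 (1.2% higher and 0.342% lower) and 0.7% with HDM201 (0.545% higher and 0.154% lower). It rose by 0.73 ± 0.15 with RG7388 (adjusted p = 0.0100) and 0.76 ± 0.15 with HDM201 (adjusted p = 0.0107), the opposite direction to irradiated cells. The RG7388 call was lost without Prolif_RG7388 replicate 3 (adjusted p = 0.0669) or Prolif_DMSO replicate 2 (adjusted p = 0.0693), and the HDM201 call without Prolif_HDM201 replicate 1 (adjusted p = 0.0587) or 2 (adjusted p = 0.0687) or Prolif_DMSO replicate 2 (adjusted p = 0.0897). On FPKM with limma both calls were lost, with an adjusted p of 0.668 for RG7388 and 0.312 for HDM201. Without Prolif_HDM201 replicate 3, HDM201 called 4 members and 1672 genes in all, against 127 genes with it. Without both libraries that earlier work set apart, HDM201 called 9 members and 2833 genes, and RG7388 called 3 members and 1436 genes. At an unadjusted p below 0.05 there were 11 members with RG7388 and 12 with HDM201, against 13.1% and 10.3% of all genes.

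The interaction of compound and state, the effect in irradiated minus that in proliferating cells, was called for 4 members with RG7388, 2 in each direction, against 7.47% of all genes (2.2% positive and 5.27% negative). With HDM201 it was called for 6 members, 4 positive and 2 negative, against 8.64% of all genes (2.97% positive and 5.67% negative), and without Prolif_HDM201 replicate 3 it was called for 10 members and 2943 genes, against 1568 genes with it. The interactions of LINC00475, at -1.67 ± 0.20 and -1.59 ± 0.20, were negative. LINC00702 had 1.72 ± 0.33 and 1.75 ± 0.34, and LINC01605 had 0.79 ± 0.18 and 0.68 ± 0.18, the last lost without IR_HDM201 replicate 3 (adjusted p = 0.0643) or Prolif_DMSO replicate 2 (adjusted p = 0.0659). LINC00452 (1.04 ± 0.24) and LINC00346 (-0.90 ± 0.22) passed with HDM201, as did LINC01963 (1.35 ± 0.35), lost without Prolif_DMSO replicate 3 (adjusted p = 0.0534). LINC00900 passed with RG7388 (-0.87 ± 0.25), a call lost when any of 9 libraries of the comparison was left out (adjusted p = 0.0524 to 0.112). On FPKM with limma, only LINC00475 under both compounds and LINC01605 with RG7388 kept their call. LINC00702 had an adjusted p of 0.805 with RG7388 and 0.635 with HDM201 there, LINC00900 of 0.238, LINC01963 of 0.0608, LINC01605 with HDM201 of 0.0544, LINC00346 of 0.0985 and LINC00452 of 0.165. Without the filter on low counts LINC00346 was at 0.0655, LINC01605 with HDM201 at 0.0582 and LINC00900 at 0.0784. LINC01605 with HDM201 was at 0.0628 with only the groups compared, and LINC01963 at 0.061 with library totals alone.

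Neighbouring coding genes were set beside the members. For irradiation in DMSO, 23 members of 48 pairs tested were called, and in 18 of those pairs the neighbour was called too, 11 in the same direction and 7 in the opposite one. In RG7388 both were called in 9 pairs, 6 in the same direction, and in HDM201 in 12 pairs, 8 in the same direction. Of all protein-coding genes, 57.7% were called in DMSO, 50.9% in RG7388 and 53.5% in HDM201. Across the 48 pairs, the log2 fold changes of member and neighbour had a Pearson r of 0.16, 0.12 and 0.15 and a Spearman rho of 0.28, 0.21 and 0.26. In irradiated cells r was 0.46 with RG7388 and 0.51 with HDM201, with rho of 0.35 and 0.47. Of 10 and 12 members called there, 2 and 3 had a called neighbour, all in the same direction. Of all protein-coding genes, 26.4% and 24.5% were called there. In proliferating cells r was 0.32 and 0.038, with rho of 0.24 and -0.006. For the interactions r was 0.38 and 0.38, with rho of 0.38 and 0.38. These describe genes within the same libraries, and genes are not independent replicates. GAS6, a ligand of the TAM receptors, lies 24230 bases from LINC00452. GAS6 rose by 0.84 ± 0.11, 1.22 ± 0.11 and 1.37 ± 0.12 after irradiation in DMSO, RG7388 and HDM201, where LINC00452 rose by 1.62 ± 0.17, 2.22 ± 0.17 and 2.66 ± 0.17. LINC00452 had 12.5, 11.4 and 11.2 CPM in IR_RG7388, 11.4, 10.4 and 12.4 CPM in IR_HDM201 and 5.27, 6.91 and 6.28 CPM in IR_DMSO, against 2.25, 2.82 and 2.46 CPM in Prolif_RG7388, 1.95, 1.94 and 1.59 CPM in Prolif_HDM201 and 2.04, 2.46 and 1.59 CPM in Prolif_DMSO. Its irradiated libraries lay above all proliferating ones, which is a description, as its count sum leaned on irradiated libraries. Both genes also rose with each compound in irradiated cells, GAS6 by 0.76 ± 0.11 and 0.75 ± 0.11. LINC00565, named SWINGN for binding SWI/SNF and acting on GAS6, overlaps LINC00452 by 461 bases on the opposite strand and fell after irradiation.

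ZC3H12A encodes an endonuclease that degrades messenger RNAs of inflammation. It had 4.47, 4.98 and 5.21 CPM in IR_RG7388, 3.54, 4.61 and 4.84 CPM in IR_HDM201 and 44.9, 47.5 and 43.2 CPM in IR_DMSO, and the log2 change was -3.21 ± 0.14 with RG7388 and -3.41 ± 0.15 with HDM201. Its divergent partner LINC01137 had 1.67, 1.55 and 1.24 CPM in IR_RG7388, 2.37, 1.49 and 1.73 CPM in IR_HDM201 and 3.61, 2.78 and 2.50 CPM in IR_DMSO. It fell by 0.99 with RG7388, and its change with HDM201 was -0.63 ± 0.24 (adjusted p = 0.0645). Irradiation in DMSO changed ZC3H12A by 2.75 ± 0.14, while LINC01137 was at 0.04 ± 0.23 (adjusted p = 0.902). LINC01137 was called lower after irradiation in RG7388 and in HDM201. The RG7388 call was lost without IR_RG7388 replicate 3 (adjusted p = 0.0543) or Prolif_RG7388 replicate 1 (adjusted p = 0.0952). The HDM201 call was lost when any 1 of 4 libraries was left out (adjusted p = 0.0564 to 0.128).

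OGFRL1, which overlaps LINC00472 on the opposite strand, rose by 2.32 ± 0.18, 2.00 ± 0.18 and 2.04 ± 0.18 after irradiation in DMSO, RG7388 and HDM201. The pair overlaps by 949 exonic bases. DCBLD2, 79363 bases from LINC00973, rose by 0.86 ± 0.13, 0.82 ± 0.13 and 1.02 ± 0.13. Other neighbours moved the opposite way. TRAF5, an adaptor of tumour necrosis factor receptors beside LINC00467, fell by 1.33, 1.07 and 0.59, and KCNJ12, a potassium channel gene beside LINC02693, rose by 2.27 ± 0.37, 2.79 ± 0.42 and 3.43 ± 0.41, with a mean of 1.195 CPM in IR_DMSO and 0.235 CPM in Prolif_DMSO.

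**Figure D4:**
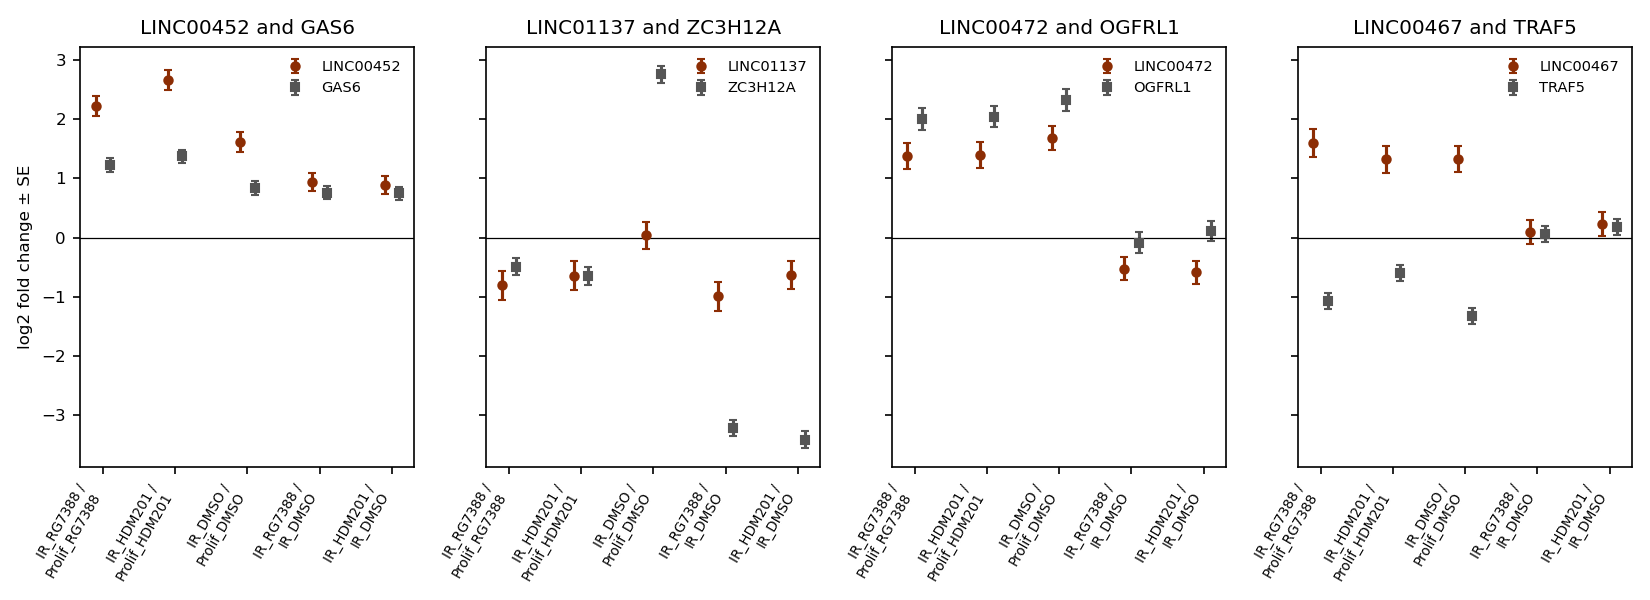
Log2 fold change with SE of 4 members and their neighbouring coding genes in 5 comparisons. LINC00452 and GAS6 rise together, LINC00467 and TRAF5 go opposite ways, and ZC3H12A moves further than LINC01137 under both compounds.

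Noncoding RNAs outside the LINC series were counted for context. Of all genes tested, 51.6% were called after irradiation in DMSO, 44% in RG7388 and 46.5% in HDM201. In irradiated cells 22.8% of all genes were called with RG7388 and 21.3% with HDM201, and in proliferating cells 1.54% and 0.7%. The counts below stand beside these shares, and whether a list differed from all genes was not tested. Of 13 tested RNAs with p53 or senescence links, 7 rose and 2 fell after irradiation in DMSO, 5 and 1 in RG7388, and 6 and 1 in HDM201. In irradiated cells 1 rose and 2 fell with RG7388 and 1 and 1 with HDM201, and in proliferating cells 1 rose with HDM201 and none was called with RG7388. NEAT1, the scaffold of paraspeckles, rose by 2.99 ± 0.14 in DMSO and fell by 1.55 with RG7388 and 1.72 with HDM201 in irradiated cells. MIR31HG, a host RNA linked to senescence, fell by 0.71 after irradiation in DMSO and rose by 0.82 ± 0.12 and 0.84 ± 0.12 with the compounds. Of 8 tested RNAs linked to inflammation, 4 rose and 2 fell after irradiation in DMSO, 1 and 2 in each compound, and 3 fell with each compound in irradiated cells, with none higher. MIR3142HG, which hosts the microRNA that restrains NF-kB signalling, averaged 0.106 CPM in IR_RG7388, 0.0146 CPM in IR_HDM201 and 3.68 CPM in IR_DMSO. Of 22 small nucleolar RNA host genes, 6 rose and 4 fell after irradiation in DMSO, 3 and 5 in RG7388, 5 and 4 in HDM201, and 7 fell with RG7388 and 3 with HDM201 in irradiated cells, with none higher. In proliferating cells no RNA of the inflammation list or the host genes was called.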

How the data were processed

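Poly(A) RNA of IMR90 cells was sequenced in 6 groups of 3 libraries, with groups and replicate numbers as labelled. The authors aligned reads to hg38 with STAR and deposited raw read counts per gene from HTSeq. They also deposited FPKM values, made by the authors with Cufflinks. Tool versions and the gene annotation behind the counts were not given in the sources used here. Gene identifiers matched GENCODE release 44 for 99.46% of genes, and 45 pseudoautosomal copies were left out. Totals of 21609198 to 66647700 counts set the precision of low genes.

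Counts were analysed in R 4.3.3 with edgeR 4.0.16. filterByExpr by group kept 18151 genes, TMM factors scaled the libraries, and 1 robust quasi-likelihood fit to the 18 libraries estimated a mean for each of the 6 groups, with 12 residual degrees of freedom. Calls needed a Benjamini-Hochberg adjusted p below 0.05 over all genes. The test was tested on simulated data first. Alternatives were DESeq2 1.42.0 size factors, library totals alone, no filter, 1 CPM in 3 libraries, a replicate block, the DESeq2 Wald test, limma 3.58.1 on log2(FPKM + 0.1), only the groups compared, leaving out each library, and leaving out 2 libraries that earlier work on these data set apart. The authors called differences with DESeq2.

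Named members were up to 8 in each direction of a comparison with the largest change among those called, with at least 1 CPM in 1 group and no overlap between groups, up to 5 in each direction of an interaction with the smallest p, the 10 with the highest FPKM, those on a list of 20 genes with a known role, and those at the limit of the count sum. The text gives a selection, and LINC00205, LINC00847, LINC00886 and the members named for a lost call were chosen after their values were seen. Of the list of 20, the members were LINC00511, LINC00842 and LINC00467. The members, the context lists, the markers and the tests were chosen with earlier results of these data known. Same-numbered libraries correlated above 0.1 in 6 of 45 pairs, so they were not treated as paired, though a pairing was not excluded. Promoters came from RefSeq and were shown where the RefSeq start lay within 22 bases of the GENCODE start.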

Additional observations from a re-analysis of the deposited data

Results flagged for a closer look

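The effect of a compound was called as different between irradiated and proliferating cells for the members below. The call came from the interaction term of the edgeR quasi-likelihood test with p adjusted over all genes, on the log2 scale and as irradiated minus proliferating. Only LINC00475 under both compounds and LINC01605 with RG7388 kept this call under every setting. LINC00900 lost it when any of 9 libraries was left out. LINC01605 with HDM201 and LINC01963 also lost it without single libraries. LINC00702, LINC00452 and LINC00346 lost it on FPKM with limma, LINC00702 with an adjusted p of 0.805 and 0.635. With RG7388 the differences were -1.67 for LINC00475 (adjusted p = 3.72e-06), 1.72 for LINC00702 (adjusted p = 0.00120), 0.79 for LINC01605 (adjusted p = 0.00588) and -0.87 for LINC00900 (adjusted p = 0.0315). With HDM201 they were -1.59 for LINC00475 (adjusted p = 7.87e-06), 1.75 for LINC00702 (adjusted p = 0.00120), 0.68 for LINC01605 (adjusted p = 0.0174), 1.35 for LINC01963 (adjusted p = 0.0186), 1.04 for LINC00452 (adjusted p = 0.00637) and -0.90 for LINC00346 (adjusted p = 0.00942). Their levels by library stand in the report for all but LINC01963 and LINC00900. LINC01963 had 12.6, 12.6 and 12.2 CPM in IR_HDM201 and 6.18, 7.85 and 7.95 CPM in IR_DMSO, with 5.09, 5.83 and 10.3 CPM in Prolif_HDM201 and 10.8, 8.66 and 12.5 CPM in Prolif_DMSO. LINC00900 had 4.29, 4.42 and 3.63 CPM in IR_RG7388 and 4.72, 6.49 and 5.52 CPM in IR_DMSO, with 4.42, 4.41 and 4.43 CPM in Prolif_RG7388 and 2.90, 3.53 and 3.47 CPM in Prolif_DMSO.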

How the results depend on the processing

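Of 121 calls of members, 74 held when each library was left out in turn and 59 under every setting. Leaving out 1 library gave 28 to 31 members called for irradiation in DMSO, 17 to 19 in RG7388 and 19 to 26 in HDM201, 10 to 14 for RG7388 and 9 to 14 for HDM201 in irradiated cells, 0 to 1 and 0 to 4 in proliferating cells, and 3 to 4 and 5 to 10 for the interactions. Over all genes these calls were 8301 to 9004, 6786 to 7042 and 7376 to 9154 for irradiation. They were 2894 to 3617 and 3024 to 3323 in irradiated cells, and 94 to 134 and 43 to 1672 in proliferating cells. For the interactions they were 991 to 1268 and 1127 to 2943. With the replicate block the member counts were 31, 22, 23, 16, 18, 1, 1, 4 and 6 in the same order, and the block ended 4 calls. Over all genes the block gave 9304, 8040, 8389, 4120, 3826, 237, 116, 1319 and 1523. Of the 18 libraries, 9 correlated best with their own number, so a pairing by number was not excluded. Library totals alone ended 19 calls and gave 7 for the RG7388 interaction, with 1769 over all genes. With no filter, HDM201 gave 9 in irradiated and 2 in proliferating cells, with 3214 and 155 over all genes. FPKM ended 50 calls and gave 8 for HDM201 in irradiated cells, 0 for either compound in proliferating cells and 1 for the HDM201 interaction. Over all genes FPKM gave 3075 for HDM201 in irradiated cells and 1216 for its interaction. A fit to the groups compared gave 10 for HDM201 in irradiated cells, 2 for RG7388 and 0 for HDM201 in proliferating cells. Over all genes that fit gave 2934 for HDM201 in irradiated cells. Without the 2 libraries that earlier work set apart, 3 members were called for RG7388 and 9 for HDM201 in proliferating cells. On FPKM the direction turned for LINC01145 (-0.41), LINC00667 (0.11) and LINC01278 (0.12) after irradiation in DMSO and for LINC00702 with RG7388 (-0.063) and HDM201 (-0.058) in irradiated cells. Over all genes, 279 were called for RG7388 in proliferating cells, against 1081 with only the groups compared, 576 with DESeq2, 147 with FPKM and 1436 without the 2 libraries, and 127 for HDM201, against 21, 310 and 2833 with only the groups, DESeq2 and without the 2 libraries. The interactions gave 1356 with RG7388, against 2098 and 2204 with only the groups and without the 2 libraries, and 1568 with HDM201, against 3321 without the 2 libraries. The cause of these changes was not tested. Members with fewer than 10 reads in a library, such as LINC01111 in proliferating cells, set the limit of depth.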
